A study of Mus musculus with 15 samples.

Results

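The 8 genes of steroid hormone signalling described here were followed through the RNA-seq libraries: the nuclear receptor genes *Pgr*, *Esr1*, *Nr3c1*, *Nr3c2* and *Esrra*, the membrane-associated progesterone receptor component genes *Pgrmc1* and *Pgrmc2*, and *Fkbp5*, a cochaperone gene of the receptor complex. They were taken by gene symbol, and all 8 members are listed once among the 20910 genes of the mRPE count table and once among the 25038 genes of the RPE/choroid count table. *Pgr* was picked for its low level in clone KO22, so its values in KO22 are a description and carry no test. All 8 members passed the filter on low counts, at least 5 counts in at least 3 libraries, in every comparison.

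Steroid hormone receptors are ligand-activated transcription factors: they are held ready by the Hsp90 chaperone machinery, bind their hormone, move to or stay in the nucleus and act on response elements in DNA. *Pgr* encodes the progesterone receptor, *Esr1* oestrogen receptor alpha, *Nr3c1* the glucocorticoid receptor and *Nr3c2* the mineralocorticoid receptor, while *Esrra* encodes an orphan receptor that needs no known steroid and acts on genes of energy metabolism. In many tissues *Pgr* is itself a target of oestrogen receptor alpha, and *Fkbp5* is a common target of the glucocorticoid receptor whose product lowers that receptor's affinity for hormone. In the retinal pigment epithelium (RPE), glucocorticoid and mineralocorticoid signalling are known for their part in fluid transport and in the response to corticosteroid drugs.

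The study compared mouse RPE with and without prominin-1, a membrane glycoprotein gene (*Prom1*). The cultured cells (mRPE) came from pooled C57BL/6J mice, were immortalised with lentiviral HPV E6/E7 and carried lentiviral Cas9. Wild-type (WT) cells gave 4 libraries, and 2 Prom1-KO lines made with a guide to exon 5, each from a deletion at its own site, gave 3 libraries (KO22) and 2 libraries (KO26). Libraries of RPE/choroid were 3 WT and 3 labelled Prom1-KO, made by Cre-loxP deletion of *Prom1* in the RPE in situ. The series' design text describes such mice as *Prom1* fl/fl with RPE65-Cre, given tamoxifen by gavage, and the labels give neither their ages nor the alleles of the WT mice. The growth protocol in the labels has hydrocortisone, which is a glucocorticoid, triiodothyronine and 5% FBS in the medium, so all mRPE groups shared a receptor ligand. Each KO line is 1 clone. The paper left both KO26 libraries out of its tests because they stayed outliers in a principal component analysis after batch correction. It proposes biological heterogeneity or technical anomalies as the reason, and all results for KO26 here rest on these 2 libraries. Library names carry a prefix, 8995 or 9262, here called the library series: replicate 1 of WT, KO22 and KO26 is of series 8995 and the other mRPE libraries are of series 9262. Nothing in the labels says that replicates came from separate cultures or animals, so the p-values measure only the spread between these libraries.

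The total count ran from 8076188 to 27537863 in mRPE libraries and from 48154444 to 61766179 in RPE/choroid libraries. *Prom1* was not analysed here in mRPE. In RPE/choroid it stood at 48.7, 49.6 and 53.3 CPM in WT and at 49.9, 48.1 and 35.5 CPM in the libraries labelled Prom1-KO, which overlap and gave a log2 fold change of -0.18 ± 0.16 (SE, adjusted p = 0.824), so those libraries are named by their label only. CPM is the count of a gene scaled to library size, with edgeR's TMM factors, throughout. In mRPE the labelled cell type could not be judged from the 11 fixed RPE markers, since 8 of them, *Rpe65* among them, are not analysed here. The other 3 were low and summed to 8.19 to 12.8 CPM in WT. There 6 of 7 fibroblast markers summed to 12820 to 17520 CPM, a sum over an unlike set of genes. In RPE/choroid the 11 RPE markers summed to 2018 to 2925 CPM in WT and to 580 to 788 CPM in the libraries labelled Prom1-KO. Mitochondrial transcripts made 64.9% to 69.1% of counts in WT RPE/choroid, 71.3% and 71% in replicates 1 and 2 of the labelled Prom1-KO and 84.2% in its replicate 3. Replicates 1 and 2 hold *Xist* at 1316 and 1146 CPM and replicate 3 at 1.79 CPM, while WT libraries hold it at 3.21 to 3.6 CPM. *Xist* and the listed Y-linked genes together summed to 1316, 1146 and 102.6 CPM in replicates 1 to 3, nearly all of it *Xist* in replicates 1 and 2. In WT they summed to 83.4 to 88.7 CPM, mostly Y-linked. Sex-linked expression thus differed between the labelled groups, and its part in the RPE/choroid comparison was not tested. A gene is called where edgeR's quasi-likelihood test gave it a Benjamini-Hochberg adjusted p below 0.05 over all genes tested and its log2 fold change exceeded 1.2 in size, and rose or fell is written of called genes only.

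Levels of different genes were compared per kilobase of annotated exon. In WT mRPE *Pgrmc1* stood highest at 38.5 ± 3.38 CPM per kilobase (SD, n = 4), followed by *Fkbp5* at 23.4 ± 2.36, *Nr3c1* at 10.0 ± 0.588, *Pgrmc2* at 6.31 ± 1.31 and *Pgr* at 5.69 ± 2.27 CPM per kilobase. *Esr1* at 2.69 ± 1.03, *Esrra* at 1.35 ± 0.340 and *Nr3c2* at 0.471 ± 0.124 CPM per kilobase came last. The libraries of neighbours in this order did not overlap except for *Pgrmc2* and *Pgr*, which ranged from 5.45 to 8.26 and from 4.25 to 9.08 CPM per kilobase. In KO22 the upper part of the order was *Pgrmc1*, *Fkbp5*, *Nr3c1* and *Pgrmc2* again, and *Esr1* at 0.211 ± 0.0182 and *Pgr* at 0.0199 ± 0.00964 CPM per kilobase (SD, n = 3) stood below *Nr3c2* at 0.293 ± 0.0360. In KO26 *Pgr* stood at rank 7, at 0.423 and 1.23 CPM per kilobase in its 2 libraries, between *Esrra* and *Nr3c2* and overlapping both.

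**Figure D1:**
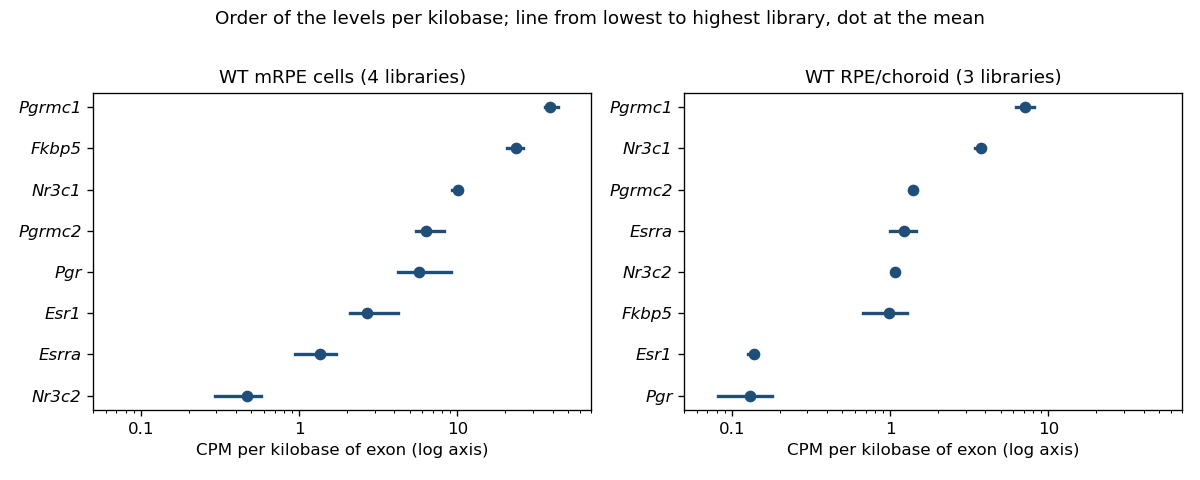
Level of each gene in WT mRPE (4 libraries, left) and WT RPE/choroid (3 libraries, right), in CPM per kilobase of exon on a log axis, with the dot at the mean and the line from the lowest to the highest library. *Pgr* stands at rank 5 in mRPE at 5.69 and last in RPE/choroid at 0.130, and *Nr3c2* is last in mRPE at 0.471; the 2 tables were normalised separately.

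*Pgr* (ENSMUSG00000031870) spans chr9:8899830-8968612 on the plus strand of GRCm39. The 250 bases before its annotated start, chr9:8899580-8899829, are shown because *Pgr* is the member whose level differed most among the mRPE groups. Capitals would mark a match on either strand to the palindromic glucocorticoid and progesterone response element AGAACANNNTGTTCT, its hexamer AGAACA, the palindromic oestrogen response element GGTCANNNTGACC or the element AAGGTCA of oestrogen-related receptors, and none is present.
Pgr promoter: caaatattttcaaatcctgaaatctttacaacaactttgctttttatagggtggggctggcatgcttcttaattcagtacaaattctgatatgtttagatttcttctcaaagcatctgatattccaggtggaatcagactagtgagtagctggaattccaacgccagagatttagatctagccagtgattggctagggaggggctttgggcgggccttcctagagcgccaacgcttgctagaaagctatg
Its GC content is 42.8%, and the median over the promoters of 21603 protein-coding genes is 51.2%. Those 4 motifs stand in 0.00463%, 15.6%, 0.0787% and 4.38% of all promoters of this length, and the full progesterone element contains the hexamer. The absence of these letters from this window says nothing of binding elsewhere.

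In WT mRPE *Pgr* stood at 77.6 CPM in replicate 1 and at 36.3, 40.9 and 39.7 CPM in replicates 2 to 4. In KO22 it was counted 3, 2 and 2 times, which is 0.259, 0.0965 and 0.155 CPM. In KO26 it stood at 3.62 and 10.5 CPM, from 78 and 91 counts. The 3 groups did not overlap, with KO26 between the others, and KO22 was at or under the floor of 3 counts in each library. Pooled over libraries, WT held 349 times the *Pgr* of KO22, with an exact 95% interval of 169 to 869 for the ratio of 2 Poisson counts, which covers counting error only. The ratio was 299.5 (102 to 1454) within series 8995 and 325.7 (127 to 1197) within series 9262. In the fit, 5154 of 20455 genes (25.2%) were called between KO22 and WT, 13.8% of all genes being called lower, and 25.3% had all KO22 libraries below all WT libraries. KO22 is what *Pgr* was picked for, so nothing is read from its place among them. Its fitted log2 fold change of -8.23 depends on the prior count and is no bound.

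KO26 was not used to pick *Pgr*, though it is compared with the same WT libraries and was fitted together with the KO22 libraries. The size and p-value of *Pgr* in KO26 are therefore not independent of the pick. *Pgr* fell in KO26 by 2.85 on the log2 scale (SE 0.461, 95% interval -3.87 to -1.83, adjusted p = 0.0125), and both KO26 libraries lay below all 4 WT libraries, as for 12.8% of all genes. It was the single member called in KO26, where 1.92% of 20737 genes were called and 0.719% were called lower. The size rests on the library taken: the log2 fold change was -4.42 without KO26 replicate 2 and -1.89 without KO26 replicate 1, and -2.03 without WT replicate 1. Within series 8995 WT held 21.4 times the *Pgr* of KO26 (17.1 to 27.2), and within series 9262 3.68 times (2.98 to 4.60). The direction was the same in both series and the ratios' intervals do not overlap. Between the clones, *Pgr* in KO22 was at 1 part in 36.1 of KO26 (interval of the ratio 17.2 to 91.2), given as a description. That was 1 part in 14 within series 8995 (4.61 to 69.2) and 1 part in 88.4 within series 9262 (33.4 to 332). The fitted log2 fold change of -5.34 between them, which depends on the prior count, was -3.81 without KO26 replicate 2 and -6.34 without KO26 replicate 1.

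**Figure D2:**
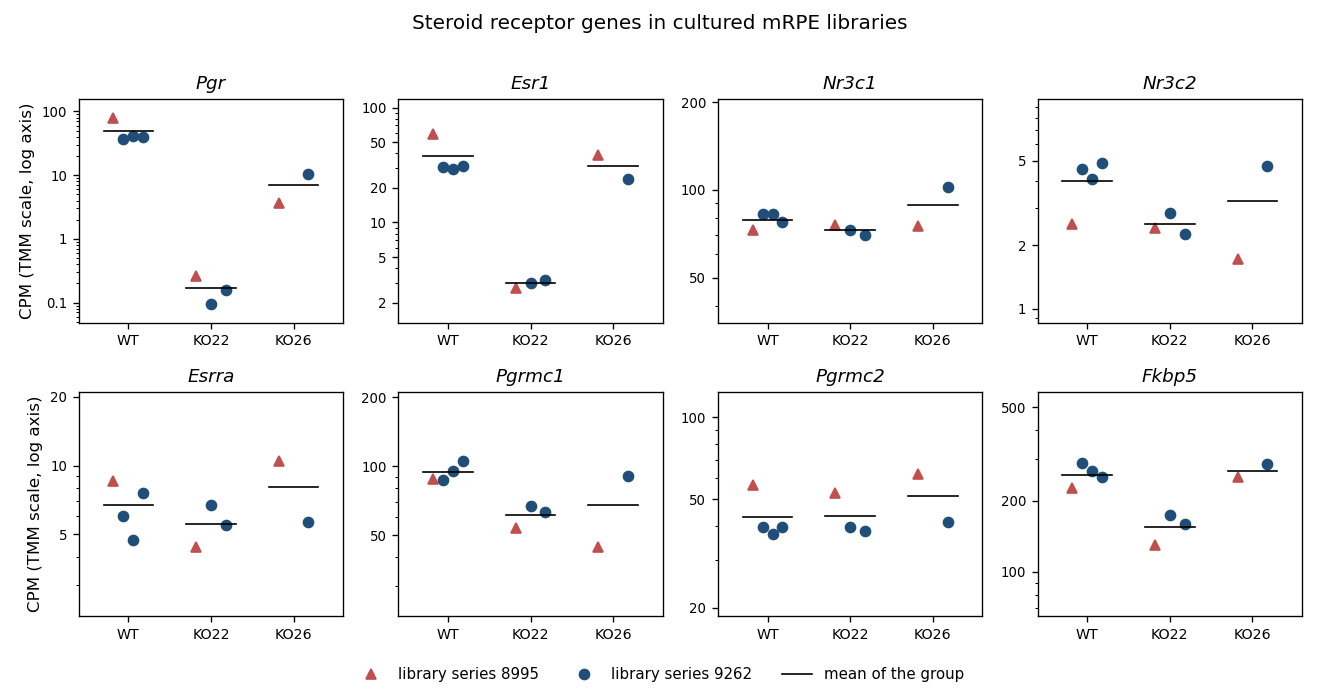
CPM of each gene in each mRPE library on log axes that differ between panels, with 4 WT, 3 KO22 and 2 KO26 libraries, the library series as the mark and the group mean as a line. *Pgr* separates the 3 groups, *Esr1* separates KO22 at 2.68 to 3.18 CPM from the others at 23.7 CPM or more, and the triangle of series 8995 stands apart in WT for *Pgr*, *Esr1* and *Pgrmc2*.

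*Esr1*, the gene of oestrogen receptor alpha (ENSMUSG00000019768, chr10:4561593-4955626, plus strand), fell in KO22 and did not pass the test in KO26. It stood at 59.1 CPM in WT replicate 1 and at 30.7, 29.4 and 31.1 CPM in replicates 2 to 4. KO22 held 2.68, 2.99 and 3.18 CPM, and KO26 38.6 and 23.7 CPM. Every KO22 library lay below every library of the other groups, as for 25.3% of all genes against WT and 24.6% against KO26, and KO26 overlapped WT. *Esr1* fell in KO22 by 3.63 on the log2 scale against WT (SE 0.224, interval -4.14 to -3.13, adjusted p = 2.7e-06), a 12.4-fold difference. Of the 7 members besides *Pgr* it was the 1 called in KO22, beside the background of 25.2%. In KO26 the log2 fold change against WT was -0.41 (interval -0.89 to 0.07, adjusted p = 0.318). With KO22 replicate 1 left out of the shared fit it was -0.48 (adjusted p = 0.0124), under the fold limit. The test of the clones themselves gave -3.22 for KO22 against KO26 (SE 0.247, adjusted p = 9.1e-06), where 18.3% of genes were called and 10.7% were called lower. Within series 8995 the difference between KO22 and WT in log2(CPM + 0.5) was -4.23 and within series 9262 it was -3.11. The median log2 fold change of all tested genes on chromosome 10 was -0.54 in KO22, and on chromosome 9, which holds *Pgr*, 0.27. For the other members' chromosomes it was -0.42 on 19 (*Esrra*), 0.60 on 8 (*Nr3c2*) and 0.20 on X (*Pgrmc1*). On 3 (*Pgrmc2*) it was 0.11, on 17 (*Fkbp5*) -0.04 and on 18 (*Nr3c1*) -0.05.

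In WT the library of series 8995 held 1.99 times the *Pgr* and 1.95 times the *Esr1* of the mean over series 9262. For *Nr3c1* that ratio was 0.902 and for *Fkbp5* 0.841. The series, with its single WT library, was a term in every mRPE fit.

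*Nr3c1*, the glucocorticoid receptor gene on chromosome 18, passed neither limit in the 3 mRPE comparisons. It stood at 73.1, 82.5, 82.8 and 77.7 CPM in WT, at 75.5, 73.0 and 70.0 CPM in KO22 and at 75.1 and 102 CPM in KO26. The groups overlapped. The log2 fold change was -0.11 in KO22 (interval -0.34 to 0.12, adjusted p = 0.372) and 0.19 in KO26 (interval -0.11 to 0.50, adjusted p = 0.461). Between the clones it was -0.29 (interval -0.61 to 0.02, adjusted p = 0.141), so a difference of the size of the call limit lies outside all 3 intervals. Some alternatives passed the adjusted p alone. Series 9262 by itself gave 0.34 in KO26 (adjusted p = 0.0468) and -0.54 between the clones (adjusted p = 0.00067). The latter was -0.42 without KO22 replicate 1 (adjusted p = 0.0138) and -0.48 without KO26 replicate 1 (adjusted p = 0.0455).

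*Nr3c2*, the mineralocorticoid receptor gene (chr8:77625576-77971863), was low in culture and passed neither limit in the 3 mRPE comparisons. It stood at 2.5 CPM in WT replicate 1 and at 4.59, 4.12 and 4.88 CPM in the other WT libraries, at 2.42, 2.85 and 2.25 CPM in KO22 and at 1.72 and 4.74 CPM in KO26. The log2 fold change in KO22 was -0.61 (interval -1.16 to -0.05, adjusted p = 0.0658), and the difference in log2(CPM + 0.5) was -0.04 within series 8995 and -0.73 within series 9262. With the libraries of series 9262 alone the adjusted p was 0.00578, and it was 0.00507 without WT replicate 1, 0.00611 without KO22 replicate 1 and 0.0458 with the filterByExpr count filter, all under the fold limit. In KO26 the log2 fold change was -0.24 (interval -0.95 to 0.47, adjusted p = 0.712). Between the clones it was -0.34, or -0.89 in series 9262 alone (adjusted p = 0.0332). Per kilobase, *Nr3c1* stood at 17.3 to 31.7 times *Nr3c2* in WT mRPE, at 27.8 to 33.9 times in KO22 and at 47.5 and 23.4 times in KO26, ranges that overlap.

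*Esrra*, whose product acts with the coactivator *Ppargc1a* on mitochondrial genes, spans chr19:6888338-6899336 on the minus strand. It stood at 8.55, 6.03, 4.71 and 7.61 CPM in WT, at 4.41, 6.71 and 5.51 CPM in KO22 and at 10.4 and 5.67 CPM in KO26, all groups overlapping. The log2 fold change was -0.28 in KO22 (interval -0.84 to 0.28, adjusted p = 0.375) and 0.18 in KO26 (interval -0.51 to 0.88, adjusted p = 0.783).

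Of the membrane-associated components, which bind haem and are known for roles in cytochrome P450 activity and in rapid progesterone responses, *Pgrmc1* differed in KO22 by less than the fold limit and *Pgrmc2* did not pass either limit. *Pgrmc1* (chrX:35861524-35869737) stood at 88.2, 87.5, 95.6 and 105 CPM in WT, at 54.0, 67.1 and 62.9 CPM in KO22 and at 44.3 and 90.8 CPM in KO26. Every KO22 library lay below every WT library, as for 25.3% of all genes, with a log2 fold change of -0.61 (SE 0.109, interval -0.85 to -0.36, adjusted p = 0.00125). KO26 overlapped both groups, and its 2 libraries lay further apart than any 2 libraries of KO22 or WT. Its log2 fold change against WT was -0.44 (interval -0.86 to -0.02, adjusted p = 0.227), or -0.94 without KO26 replicate 2 (adjusted p = 0.0372). Between the clones it was -0.15, and it passed the adjusted p alone in series 9262 by itself (-0.50, adjusted p = 0.00261) and without KO26 replicate 1 (-0.51, adjusted p = 0.044). *Pgrmc2* (chr3:41017138-41037481) stood at 56.7 CPM in WT replicate 1, at 52.7 CPM in KO22 replicate 1 and at 61.8 CPM in KO26 replicate 1, and at 37.4 to 41.3 CPM in all 6 libraries of series 9262. Its log2 fold change was -0.03 in KO22 (interval -0.25 to 0.20, adjusted p = 0.828) and 0.11 in KO26 (interval -0.16 to 0.39, adjusted p = 0.642). *Pgrmc2* thus moved with the library series.

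*Fkbp5* (ENSMUSG00000024222) spans chr17:28618058-28737521 on the minus strand. Within its span and the 5 kilobases upstream it holds 2 exact matches, both intronic, to the palindromic glucocorticoid and progesterone response element, the only member with any; 1.35% of 21603 genes hold 1, at 0.249 matches per megabase. They are shown with those of 2 other glucocorticoid target genes because these are the letters the receptors are known to bind, with the motif in capitals and each read 5′ to 3′ on its gene's strand (GRCm39).
Fkbp5 at chr17:28639288-28639316 (minus), 98219 bases from the gene start: cacattcAGAACAGGGTGTTCTgtgctct
Fkbp5 at chr17:28661386-28661414 (minus), 76121 bases from the gene start: ttgtttgAGAACAGCTTGTTCTaggcttt
Sgk1 at chr10:21869593-21869621 (plus), intronic: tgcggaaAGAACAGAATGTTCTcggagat
Angptl4 at chr17:33993858-33993886 (minus), exonic: caacctcAGAACATTTTGTTCTctgttgt
Of the 24 genes of the glucocorticoid target list, *Sgk1* and *Angptl4* are the 2 with such a match. None of the 8 members holds the palindromic oestrogen response element in the same windows, which 5.39% of all genes hold. A match is a run of letters and not a site shown to be bound, and the windows differ in length with the genes.

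*Fkbp5* stood at 226, 288, 268 and 252 CPM in WT, at 130, 174 and 159 CPM in KO22 and at 252 and 285 CPM in KO26. Every KO22 library lay below every WT and KO26 library, as for 25.3% of all genes against WT and 24.6% against KO26. KO26 lay within the WT range. Against WT the log2 fold change in KO22 was -0.73 (SE 0.107, interval -0.97 to -0.49, adjusted p = 0.000388), which passed the limit on the adjusted p and not that on the fold. In KO26 it was 0.12 (interval -0.16 to 0.41, adjusted p = 0.618). The test of KO22 against KO26 gave -0.85 (SE 0.132, adjusted p = 0.00078), again under the fold limit. On the adjusted p alone, 3 of the 7 members besides *Pgr* passed in KO22, *Esr1*, *Pgrmc1* and *Fkbp5*, all lower, where 53% of all genes passed and 26.1% passed as lower. In KO26, *Pgr* alone of the 8 passed, where 3.5% of all genes did and 1.13% did as lower. Between the clones *Esr1* and *Fkbp5* passed of the 7, both lower, where 34.4% of all genes passed and 18.1% as lower.

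**Figure D3:**
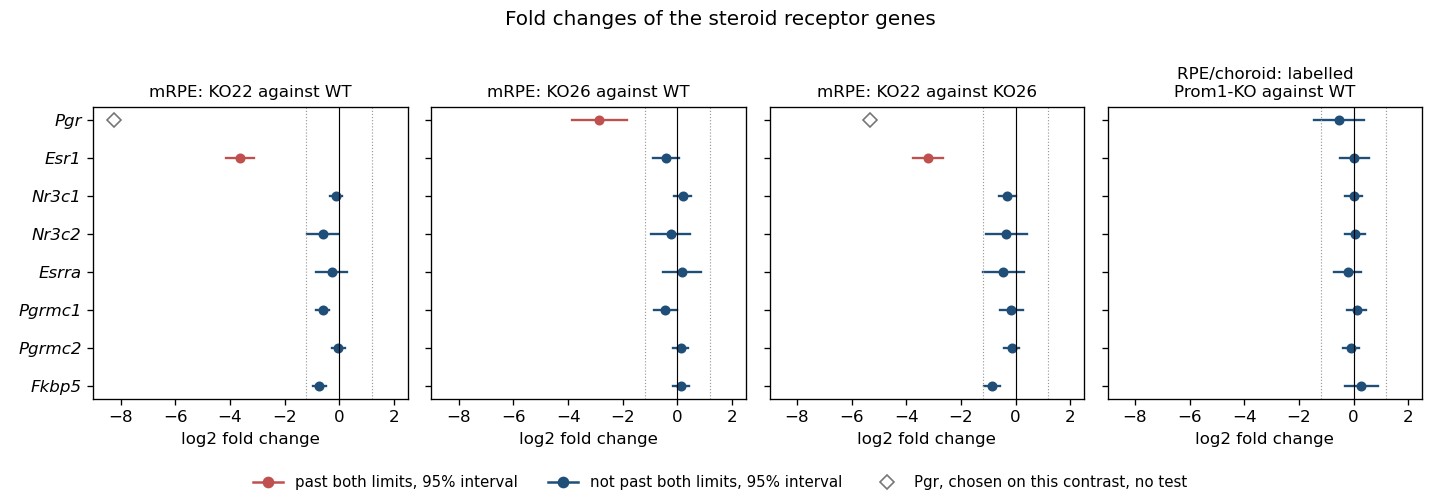
Log2 fold change of each gene (x axis) in the 4 comparisons, with edgeR's 95% interval as a line and dotted lines at the fold limit of 1.2 in each direction. Only *Esr1* against either group in KO22, at -3.63 and -3.22, and *Pgr* in KO26, at -2.85, lie past both limits; *Pgr* in KO22 is drawn without an interval because it was chosen on those values.

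Sums of marker genes of other cell types differed between the mRPE groups, and their part in these differences was not tested. The 6 fibroblast markers summed to 12820 to 17520 CPM in WT, 5565 to 8659 CPM in KO22 and 19880 to 21800 CPM in KO26. The 7 mural and smooth muscle markers summed to 962.5 to 2047, 271 to 392 and 1236 to 2280 CPM. Of 9 endothelial markers, 6 were measured and summed to 153.5 to 238 CPM in WT, 4.89 to 6.76 CPM in KO22 and 57.7 to 75.9 CPM in KO26, the same order as *Pgr*. *Kdr*, a VEGF receptor gene, carried that sum, with 235, 160, 151 and 162 CPM in WT and 72.3 and 55.3 CPM in KO26, while *Pecam1* was under 1 CPM in all 9 libraries. In KO22 *Kdr* stood at 0.346 to 3.72 CPM. The list as a whole did not share that order: in KO22 against WT 3 of the 6 had a negative and 3 a positive log2 fold change. Their median was 0.09, with 1 called higher and 2 lower, where 11.4% and 13.8% of all genes were. The 4 Y-linked genes and *Xist*, which mark no cell type, together held 200 to 223 CPM in WT, 153 to 203 CPM in KO26 and 2.51 to 25.2 CPM in KO22. All 5 were called lower in KO22, where 13.8% of all genes were. The median log2 fold change over the 8 tested genes of chromosome Y was -3.39 there. For the cell type markers, fewer cells of a type and less RNA per cell cannot be told apart in these bulk libraries.

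The 5 genes whose log2 CPM followed *Pgr* most closely over the 9 mRPE libraries, of 20736 ranked, were *Qsox1* (Pearson r = 0.993), *Dnm3os* (0.992), *Pwwp3b* (0.990), *Il6st* (0.989) and *Serinc1* (0.988). The libraries share clone and series and the 3 KO22 libraries set most of this likeness, so it is a description.

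Among 11 other steroid and related receptor genes, 7 were tested in mRPE, and none was called in KO22 by edgeR or DESeq2. Of the 7, 3 had an unadjusted p under 0.05 by edgeR, where 11938 of all 20455 genes did. *Paqr8*, a membrane progestin receptor gene, stood at 8.74, 7.13, 5.99 and 3.52 CPM in WT, at 3.89, 2.89 and 2.48 CPM in KO22 and at 6.78 and 6.48 CPM in KO26. KO22 overlapped WT, with a log2 fold change of -1.08 (adjusted p = 0.00755), under the fold limit. *Nenf*, a relative of *Pgrmc1*, stood at 20.1, 13.2, 14.1 and 15.1 CPM in WT, at 5.18, 8.15 and 9.39 CPM in KO22 and at 25.3 and 9.37 CPM in KO26. Every KO22 library lay below every WT library, as for 25.3% of all genes, and the log2 fold change of -1.04 (adjusted p = 0.00477) was under the fold limit too. Without WT replicate 4 or KO22 replicate 3, 1 of the 7 was called, as lower. The median of the 7 was -0.41, and that of all tested genes -0.03.

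Of the 16 chaperones and cochaperones that hold the receptors ready, 4 were called in KO22, all higher (*Dnajb1*, *Hsp90aa1*, *Hsp90ab1* and *Fkbp4*), where 11.4% of all genes were called higher. On the adjusted p alone 13 passed as higher and 1 as lower, where 26.9% of all genes passed as higher, and the list's median log2 fold change was 0.93. *Dnajb1*, an Hsp40 cochaperone, stood at 20.1, 10.6, 11.2 and 10.9 CPM in WT and at 76.3, 36.5 and 44.1 CPM in KO22 (log2 fold change 1.90 ± 0.12, adjusted p = 2.8e-06). *Hsp90aa1*, the inducible Hsp90, rose by 1.38 (SE 0.18, adjusted p = 0.000207). *Fkbp4*, whose product competes with that of *Fkbp5* for a place in the receptor complex, stood at 54.3, 35.0, 39.6 and 36.6 CPM in WT and at 58.2, 119 and 134 CPM in KO22 (1.30, adjusted p = 0.00274). KO22 replicate 1 was close to WT replicate 1 for it. The 4 calls became 2 without WT replicate 2, KO22 replicate 2 or KO22 replicate 3 and 8 without WT replicate 1 or KO22 replicate 1. In KO26 none of the 16 was called by edgeR or DESeq2. By edgeR 3 had an unadjusted p under 0.05 there, where 4163 of all 20737 genes did. Reads of Hsp90 genes may be split with their pseudogene copies.

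Glucocorticoid target genes moved both ways in KO22: of 24 tested, 4 were called higher and 6 lower, where 11.4% and 13.8% of all genes were, with a median of -0.42 (unchanged with *Cdkn1c*, at 0 in KO22, at its bound). *Pdk4*, a kinase that shuts pyruvate out of the mitochondrion, stood at 33.4, 59.8, 53.2 and 66.3 CPM in WT and at 6.05, 6.37 and 6.13 CPM in KO22, a fall by 3.03 (adjusted p = 2.7e-06). *Zbtb16*, a transcription factor gene, fell by 2.11 (adjusted p = 3.0e-06) from 24.2 to 38.0 CPM in WT to 6.13 to 8.15 CPM in KO22. *Tsc22d3*, which encodes the anti-inflammatory factor GILZ, fell by 2.62 (adjusted p = 9.6e-06). In the other direction *Rgs2*, a regulator of G protein signalling, was at 0.835 CPM or less in WT and at 101, 13.3 and 14 CPM in KO22 (adjusted p = 9.8e-07), and the metallothionein gene *Mt2* rose by 1.84 (adjusted p = 0.00261), to 690, 132 and 190 CPM against 56.8 to 81.9 CPM in WT. KO22 replicate 1 stood highest for both. The targets *Per1* (0.02, adjusted p = 0.941) and *Dusp1* (-0.28, adjusted p = 0.15) did not pass, and *Sgk1* had -1.11 (adjusted p = 0.000146), under the fold limit. The 4 higher calls became 2 in series 9262 alone and without WT replicate 1, KO22 replicate 1 or KO22 replicate 3. In KO26 the single call of the list was *Rgs2* (2.08, adjusted p = 0.0393, beside 1.21% of all genes called higher), which was lost under 9 of 16 alternatives and whose libraries overlapped WT. By edgeR 10 of the 24 had an unadjusted p under 0.05 in KO26, where 4163 of all 20737 genes did. The log2 fold change was negative for 19 of them, with a list median of -0.21 and a median of 0.03 over all tested genes.

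Of the mineralocorticoid response genes, 4 of 8 tested were called in KO22, all lower, where 13.8% of all genes were called lower. The list's median of -1.33 was the lowest of the 9 lists of steroid signalling. They were *Atp1b1*, a sodium pump subunit gene (-2.24, adjusted p = 4.5e-06, 7.95 to 11.9 CPM in KO22 and 30.5 to 62.7 CPM in WT), *Tsc22d3*, which stands in both lists, *Usp2* and *Hsd11b2*. *Hsd11b2*, whose enzyme keeps cortisol from the mineralocorticoid receptor, was at 0.517 to 1.18 CPM in WT and 0.310 to 0.432 CPM in KO22. No gene of the list was called in KO26 by edgeR or DESeq2. By edgeR 2 had an unadjusted p under 0.05, where 4163 of all 20737 genes did. On the adjusted p alone 1 passed, as higher, where 490 of all genes passed as higher. *Atp1b1* stood at 78.4 and 97.6 CPM in KO26, against 30.5 to 62.7 CPM in WT.

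Of 12 oestrogen target genes tested, 4 were called in KO22, all lower, where 13.8% of all genes were called lower. *Cxcl12*, a chemokine gene, stood at 888 to 1051 CPM in WT, at 186, 144 and 112 CPM in KO22 (-2.77, adjusted p = 3.9e-06) and at 567 and 1187 CPM in KO26. *Greb1*, named for its growth response to oestrogen, stood at 82.1 to 98.8 CPM in WT, at 35.1, 40.7 and 36.3 CPM in KO22 (-1.27, adjusted p = 2.5e-05) and at 67.3 and 55.7 CPM in KO26, and lost its call without KO22 replicate 1. *Bcl2* and *Ccn5* were the others, and the 4 calls became 2 without KO22 replicate 1. *Ccn5*, a matricellular gene, was the 1 called in KO26, where it rose by 2.05 (adjusted p = 0.00617) to 84.9 and 175 CPM, against 1.21% of all genes called higher. In KO22 it stood at 6.65, 15.7 and 12.9 CPM, overlapping WT replicate 1 at 11.4 CPM and below the other WT libraries at 49.4 to 67.9 CPM, and KO22 against KO26 gave -3.75 (adjusted p = 1.1e-05). Without the term for the series its call in KO26 was lost. The list's median in KO22 was -0.42.

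Of 11 progesterone target genes of the uterus, 3 were called higher in KO22, or 1 in series 9262 alone, and 3 lower, where 11.4% and 13.8% of all genes were called higher and lower, with a median of 0.20. *Il13ra2*, a decoy receptor gene, rose by 2.78 (adjusted p = 2.6e-05), from 0.835 to 4.71 CPM in WT to 12 to 21.9 CPM, and *Areg*, an EGF receptor ligand gene, stood at 24.8, 2.89 and 5.2 CPM against 0.294 CPM or less in WT (adjusted p = 2.8e-05). *Klf9* fell by 1.33 (adjusted p = 7.8e-05) and *Hoxa10* stood at 0, 1.06 and 0.388 CPM against 7.54 to 10.9 CPM in WT (adjusted p = 0.000226). None of the 11 was called in KO26 by edgeR, and DESeq2 called 1 as lower. By edgeR 2 had an unadjusted p under 0.05 there, where 4163 of all 20737 genes did.

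Of 17 tested *Esrra* target genes of energy metabolism, 4 were called higher in KO22 (*Uqcrc1*, *Sdhb*, *Ppargc1a* and *Cycs*) and *Pdk4* lower, where 11.4% of all genes were called higher and 13.8% lower. On the adjusted p alone 12 passed as higher, where 26.9% of all genes did, and the median was 0.91. *Uqcrc1*, a respiratory complex III subunit gene, rose by 1.59 (adjusted p = 3.0e-05), and *Sdhb*, of complex II, by 1.4 (adjusted p = 0.0017), which came under the fold limit without KO22 replicate 3 (1.15), where 2 of the list were called higher. Among 14 coregulators, 1 was called higher and 1 lower in KO22, where 11.4% and 13.8% of all genes were, with a median of 0.32. *Ncoa1*, the steroid receptor coactivator gene, fell by 1.63 (adjusted p = 7.4e-06), from 58.5 to 67.8 CPM in WT to 18.1 to 21.5 CPM in KO22, and stood at 53.0 and 62.7 CPM in KO26. *Ppargc1a* rose by 2.62 (adjusted p = 0.00602) from at most 0.785 CPM to 2.09 to 2.61 CPM. Neither list had a call in KO26 by edgeR or DESeq2. Each had 3 genes with an unadjusted p under 0.05 by edgeR, where 4163 of all 20737 genes had one.

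Of 22 tested genes of steroid synthesis and metabolism, 5 were called higher in KO22 and 3 lower, where 11.4% and 13.8% of all genes were, with a median of 0.26. *Akr1c18*, which inactivates progesterone, stood at 0.431 CPM or less in WT and at 42.1, 8.06 and 14.1 CPM in KO22 (adjusted p = 1.3e-05), and *Cyp7b1*, a hydroxylase of oxysterols and steroids, at 1.08 CPM or less in WT and 13.9 to 24.4 CPM in KO22 (adjusted p = 2.9e-05). *Akr1c14*, a 3-alpha-hydroxysteroid dehydrogenase gene, fell in both clones: from 54.2 to 74.8 CPM in WT to 11.1 to 20.0 CPM in KO22 (-2.23, adjusted p = 1.1e-05) and to 20.5 and 25.6 CPM in KO26 (-1.55, adjusted p = 0.0106, beside 0.719% of all genes called lower), the latter lost without KO26 replicate 1. *Hsd17b11* was 2.68-fold lower in KO22 (adjusted p = 2.0e-05).

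**Figure D4:**
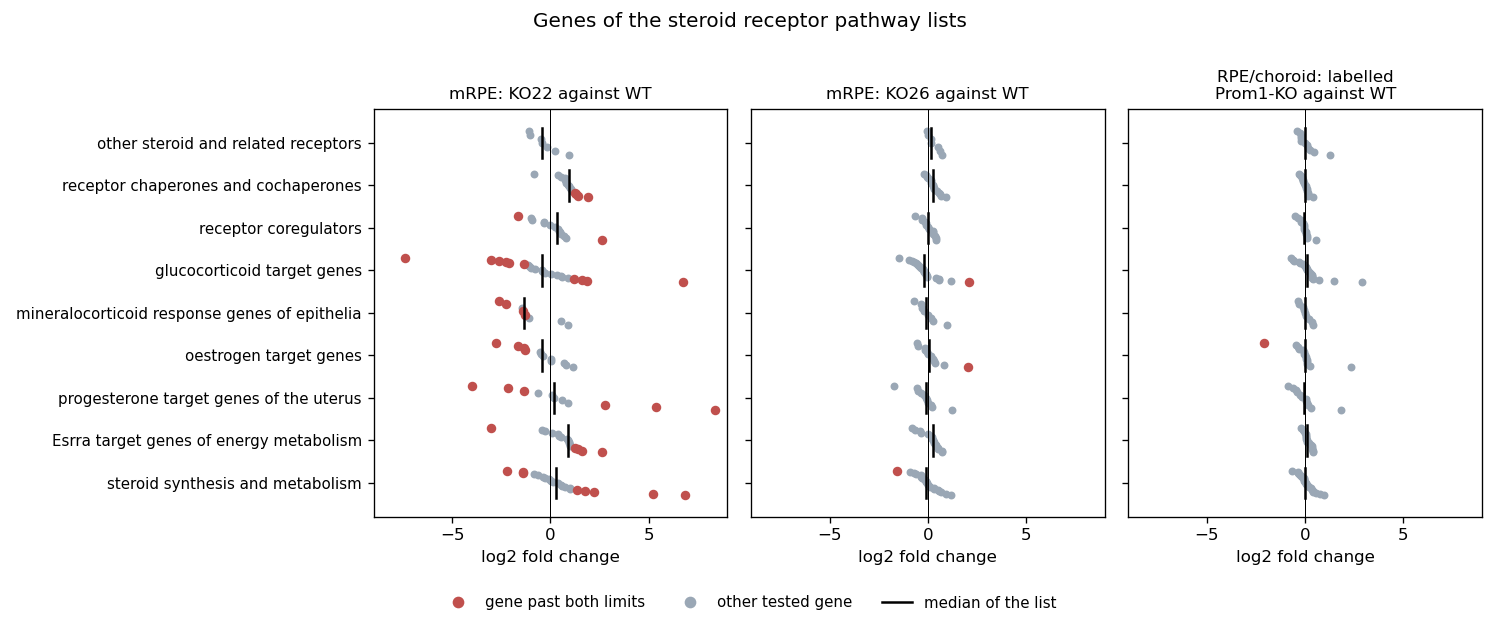
Log2 fold change (x axis) of each tested gene of the 9 lists (rows) in KO22 against WT, KO26 against WT and labelled Prom1-KO against WT RPE/choroid, with called genes in red and the list's median as a bar. In KO22 the medians run from -1.33 for mineralocorticoid response genes to 0.93 for the chaperones, while KO26 has 3 called genes and RPE/choroid 1.

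In RPE/choroid no member was called by edgeR, where 0.189% of 24926 genes were called, all 47 of them lower, and 0.193% passed the adjusted p. DESeq2 called no member either. No member had an unadjusted p under 0.05, where 8.3% of all genes did. *Pgr* was counted 50, 65 and 105 times in WT and 27, 47 and 31 times in the libraries labelled Prom1-KO, which is 0.701, 1.10 and 1.53 CPM against 0.524, 0.767 and 1.03 CPM. The groups overlapped, and the log2 fold change was -0.54 (interval -1.44 to 0.37, adjusted p = 0.784). *Esr1* stood at 1.77, 2.01 and 1.97 CPM in WT and at 1.92, 1.50 and 2.45 CPM in the labelled Prom1-KO (0.02, interval -0.52 to 0.57). The RPE markers, of which *Rpe65*, *Lrat* and *Rgr* were called lower, moved with these labels. All 9 endothelial markers had a negative log2 fold change, with a median of -0.88, and none was called. Their sums were 109 to 222 CPM in WT and 75.85 to 97.4 CPM in the labelled Prom1-KO. Photoreceptor marker sums overlapped, at 45.25 to 1208 and 22.5 to 584 CPM, and so did skeletal muscle marker sums, at 277 to 861 and 58.3 to 765 CPM. The part of these and of the sex-linked genes was not tested.

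For *Nr3c1* and *Nr3c2* the intervals in RPE/choroid kept within 0.42 on the log2 scale. *Nr3c1* stood at 27.2, 30.8 and 30.9 CPM in WT and at 27.7, 27.9 and 33.5 CPM in the labelled Prom1-KO, a log2 fold change of 0.00087 (interval -0.31 to 0.31). *Nr3c2* stood at 9.02, 9.17 and 9.20 CPM in WT and at 10.7, 10.1 and 7.66 CPM in the labelled Prom1-KO (0.05, interval -0.31 to 0.42). Replicate 3 of the labelled Prom1-KO, the library with most mitochondrial counts, was the highest of the 6 for *Nr3c1* and the lowest for *Nr3c2*.

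Of the others, *Fkbp5* stood at 14.1, 11 and 7.48 CPM in WT and at 10.0, 14.5 and 14.8 CPM in the labelled Prom1-KO (0.27, interval -0.33 to 0.88, adjusted p = 0.845). *Esrra* had -0.22 (interval -0.71 to 0.27), *Pgrmc1* 0.11 (interval -0.24 to 0.45) and *Pgrmc2* -0.11 (interval -0.39 to 0.18). All groups overlapped. Of the lists, the single call was *Car12*, a carbonic anhydrase gene among the oestrogen targets, at 46.7, 38.1 and 41.9 CPM in WT and 7.57, 14.1 and 8.06 CPM in the labelled Prom1-KO (-2.09, adjusted p = 0.0357), which was lost under 6 of 13 alternatives. DESeq2 called *Car12*'s list once in each direction and 1 glucocorticoid and 1 progesterone target as higher. *Greb1*, which fell in KO22, stood at 0.812 to 3.35 CPM in WT tissue and at 8.25 to 13.0 CPM in the labelled Prom1-KO. edgeR did not call it there.

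**Figure D5:**
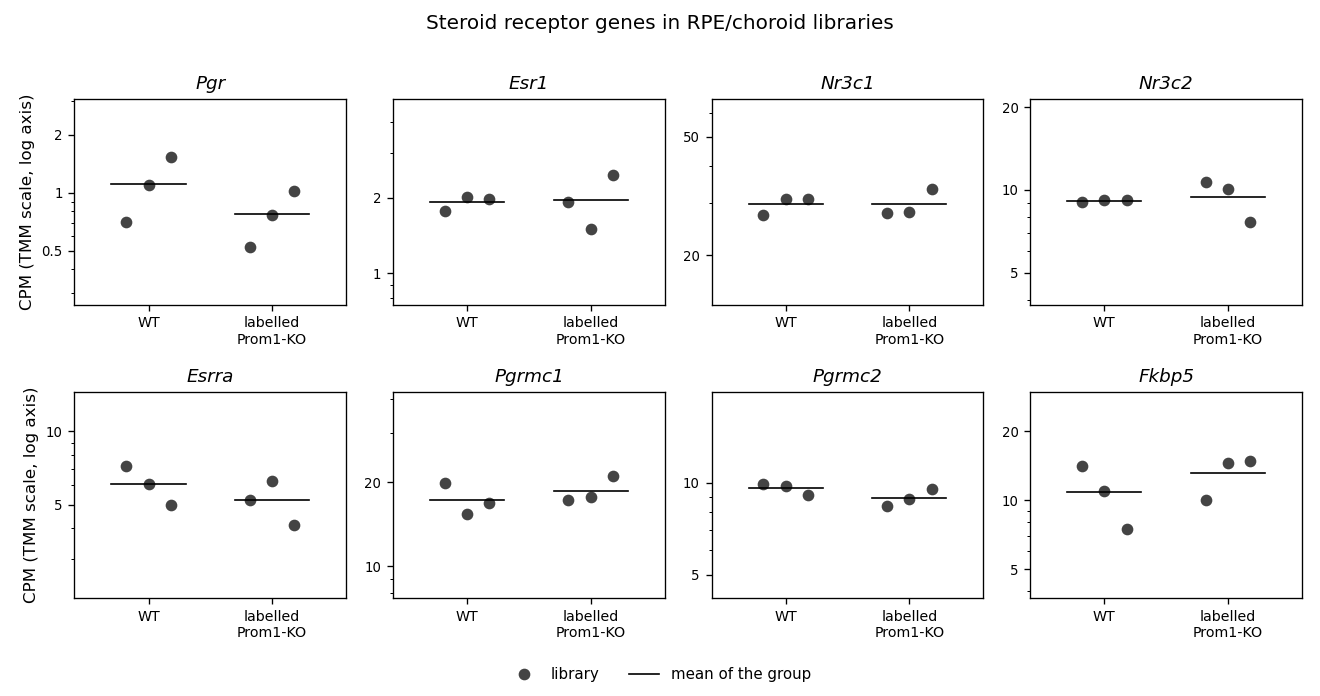
CPM of each gene in each RPE/choroid library on log axes that differ between panels, 3 WT and 3 labelled Prom1-KO, with the group mean as a line. The groups overlap for every gene, *Pgr* lying between 0.524 and 1.53 CPM in all 6 libraries.

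The order of the members differed between tissue and culture, 2 tables that were normalised separately and are set side by side with no test. In WT RPE/choroid *Pgrmc1* stood at 7.09 ± 0.934 and *Nr3c1* at 3.76 ± 0.265 CPM per kilobase (SD, n = 3). *Pgrmc2* at 1.4, *Esrra* at 1.22, *Nr3c2* at 1.07 and *Fkbp5* at 0.98 CPM per kilobase followed, each overlapping the next, and *Esr1* at 0.137 and *Pgr* at 0.130, overlapping, came last. *Fkbp5* was thus above *Nr3c1* in every WT culture library and below it in every WT tissue library. Per kilobase *Nr3c1* stood at 3.28, 3.65 and 3.65 times *Nr3c2* in WT tissue, against 17.3 times or more in WT culture. In the labelled Prom1-KO that ratio was 2.82, 3.01 and 4.74.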

How the data were processed

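RNA-seq of 9 mRPE and 6 RPE/choroid libraries was used. Per the submitters' processing notes the authors trimmed reads with Trim Galore 0.6.7, aligned them with STAR to mm39 and used DESeq2 1.42.0, and the deposited tables hold raw counts per gene, from which genes with few counts had been removed. The study's methods and the labels name different library kits. The authors' normalized tables, which are those counts divided by 1 factor per library, were not used. Groups were read from the labels, with replicates numbered in accession order. The members and gene lists were chosen with earlier results of these data known, and 1 listed gene is not reported here.

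A gene was kept where 3 or more libraries held 5 or more of its counts, and tests were run in edgeR 4.0.16 (limma 3.58.1, R 4.3.3), with TMM scaling, quasi-likelihood tests and Benjamini-Hochberg adjustment over all genes tested. KO22 against WT used 7 libraries, since the study left out both KO26 libraries as outliers. KO26 was tested in a fit over 9, and each fit had the library series as a term. RPE/choroid was tested over 6. CPM uses TMM-scaled library sizes, and intervals on counts cover counting error only. Values on simulated data were checked first: of 200 genes changed by a log2 fold change of 2, 173, 149, 148 and 109 were called in KO22 against WT, KO26 against WT, KO22 against KO26 and RPE/choroid. Of the unchanged genes, 5, 4, 6 and 10 were called. The simulated libraries held no difference between the library series, so the check does not cover that part of the mRPE spread.

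Named were the members, up to 2 called genes of each list and direction with the smallest p, and the 5 genes most like *Pgr*; *Paqr8*, *Nenf*, *Hsp90ab1*, *Fkbp4*, *Sgk1*, *Per1*, *Dusp1*, *Usp2*, *Hsd11b2*, *Bcl2*, *Cycs* and *Kdr* were added after their values were seen. Alternatives were DESeq2, its size factors, other count filters, no fold limit, no series term, series 9262 alone, 1 fit over 9 libraries and leaving out each library. Sequences come from GRCm39 and GENCODE annotation. No libraries agreed within sampling noise.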

Additional observations from a re-analysis of the deposited data

Results flagged for a closer look

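In WT mRPE, replicate 1 stood apart from the other 3 libraries for 3 of the 8 members. *Pgr* stood at 77.6 CPM there, and the gap to the nearest library was 0.889 of the group's whole range. *Esr1* stood at 59.1 CPM, with a gap of 0.945 of the range, and *Pgrmc2* at 56.7 CPM, with a gap of 0.885 of the range. Chance marks about 1 in 20 groups of 4 in this way where the libraries are drawn alike. The rule was applied to the members alone, so the 3 have no share over all genes beside them and are not read as a trait of the members. Over genes with at least 20 counts, the chi-square per degree of freedom between replicate 1 and each other WT library was 65.4 to 86.6. Among the other WT libraries it was 5.2 to 7.94. Replicate 1 is the WT library of series 8995. *Pgrmc2* was also higher in the series 8995 libraries of KO22, at 52.7 CPM, and of KO26, at 61.8 CPM, than in all 6 libraries of series 9262, at 37.4 to 41.3 CPM. *Pgr* was lower in the series 8995 library of KO26, at 3.62 against 10.5 CPM. *Esr1* was higher in that library, at 38.6 against 23.7 CPM, and lower in that of KO22, at 2.68 against 2.99 and 3.18 CPM.

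The 2 clones differed by edgeR's test of KO22 against KO26 for *Esr1*, with a log2 fold change of -3.22 (adjusted p = 9.1e-06), and for *Fkbp5*, with -0.85 (adjusted p = 0.00078). All 3 KO22 libraries lay below both KO26 libraries for each gene, as for 24.6% of all genes. KO26 held 38.6 and 23.7 CPM of *Esr1* and 252 and 285 CPM of *Fkbp5*.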

How the results depend on the processing

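Of the members' calls, *Pgr* in KO26 was called under all 16 alternatives (log2 fold change -4.42 to -1.88, adjusted p 1.88e-07 to 0.0496), and *Esr1* in KO22 against WT under all 15 (-3.82 to -3.30). The KO26 comparison has 2 libraries, and leaving out 1 assumes that the other varies like the remaining groups. All 16 alternatives used WT libraries on which *Pgr* was picked, so they are not independent of the pick. In KO22 against WT, 2338 genes were called higher and 2816 lower, or 5506 and 5331 with no fold limit. In KO26, 250 were called higher and 149 lower: with no fold limit 490 and 235, with no term for the series 123 and 71, in series 9262 alone 425 and 256, and by DESeq2 269 lower. Leaving out 1 library gave 68 (without WT replicate 2) to 471 (without KO22 replicate 1) higher and 32 (without KO26 replicate 1) to 407 (without KO22 replicate 1) lower. Between the clones, no fold limit gave 3388 higher and 3744 lower. In RPE/choroid edgeR called 0 higher and 47 lower, and 2068 genes had an unadjusted p under 0.05: DESeq2 called 84 and 189, filterByExpr and the removal of mitochondrial genes 1 higher each, leaving out 1 library 0 to 5 higher and 9 to 37 lower, and leaving out the 2 libraries with *Xist* counts 0 lower. The last 2 kinds, without mitochondrial genes and without those 2 libraries, were chosen after seeing the data.

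The following log2 fold changes turned sign, and none passed a limit at the turned sign; with the sign kept, *Nr3c1*, *Nr3c2* and *Pgrmc1* passed the adjusted p alone under some alternatives, as given beside them. In KO22 against WT, leaving out 1 library took *Esrra* from -0.52 to 0.0056 and *Pgrmc2* from -0.093 to 0.0153, and *Pgrmc2* was 0.0040 with no series term and 0.0096 in series 9262. In KO26, leaving out 1 library took *Nr3c1* from -0.041 to 0.36, *Nr3c2* from -0.79 to 0.14 and *Esrra* from -0.23 to 0.56, and series 9262 alone gave *Nr3c2* 0.066 and *Esrra* -0.12. Between the clones it took *Nr3c2* from -0.75 to 0.19 and *Pgrmc1* from -0.51 to 0.34, and series 9262 alone gave *Esrra* 0.10. In RPE/choroid *Nr3c1* was -0.00081 with DESeq2's size factors, -0.0018 by DESeq2 and -0.014 without mitochondrial genes, and without the 2 libraries with *Xist* counts *Nr3c2* was -0.28. Leaving out 1 library took *Esr1* from -0.18 to 0.19, *Nr3c1* from -0.11 to 0.045, *Nr3c2* from -0.050 to 0.17 and *Pgrmc1* from -0.0026 to 0.21. The causes were not tested. The labels give no replicate numbers to pair libraries by; the library series was a term in every mRPE fit, and counts over all genes that moved by over 1.5 times with no series term stand above. Counts near the floor of 3, as for *Pgr* in KO22, limit its ratios.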
